A study of Mus musculus with 12 samples.

Results

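The 6 Mouse Genome 430 2.0 arrays of a series of 12 were compared here, 3 labelled 0 h and 3 labelled 24 h. All were chosen by their array design, with the Affymetrix control probe sets left out. PUER is an IL-3 (interleukin-3)-dependent line of mouse myeloid progenitors without endogenous PU.1. A fusion of PU.1 with the ligand-binding region of the estrogen receptor was put in its place, and 4-hydroxytamoxifen (OHT) activates this protein. Per the labels, every culture had IMDM, serum, puromycin and 5 ng/ml IL-3. The 0 h cells had no OHT, and the labels describe them as lacking PU.1 expression. The 24 h cells had 100 nM OHT. PUER is a single line, and the labels do not tell whether the 3 arrays of a group came from separate cultures. The p-values therefore cover only array-to-array spread, possibly technical.

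PU.1, encoded by Spi1, is a transcription factor that binds purine-rich DNA and is needed for macrophages and B cells. In progenitors it works alongside and against factors of other lineages, such as the granulocytic repressor GFI1 and the erythroid factor GATA1. It acts on genes for surface receptors, their signalling adaptors and lysosomal enzymes. The 430 design reads a transcript through probe sets, groups of short probes that lie mostly near the 3' end. Many genes have several probe sets, which can read different transcript ends or isoforms.

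After the 64 control probe sets were left out, 45037 probe sets were tested. Of these, 34945 carried 1 gene symbol, and they covered 18193 genes, 9183 with a single probe set and 9010 with 2 to 12. A gene was read from its probe set with the highest mean over the 6 arrays. Levels are the deposited log2 signals, and a change is the mean at 24 h minus the mean at 0 h. Array medians were 5.78 to 5.80 at 0 h and 5.85 to 5.87 at 24 h. Arrays of a group correlated at 0.997 or 0.998 across probe sets, and arrays of different groups at 0.967 to 0.969. The number of arrays limits the precision.

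The labels' time direction is not settled by these values. On the 6 Exon 1.0 ST arrays with the same labels, 3713 of the 3770 genes called on both designs moved the opposite way and 57 moved the same way. The changes of 13356 shared genes correlated at -0.861 (Pearson) across genes, which are not independent replicates. Of the 50 genes that the naming rules pick as the most changed, 42 were on the exon arrays, and each of the 42 was called there with the opposite sign. All directions below are those of the 430 labels. With these labels exchanged, each change would keep its size and take the opposite sign. The label protocol also names a sense-DNA target for these arrays, while the usual target of the design is antisense RNA; the effect of this was not tested. Spi1 itself had log2 levels of 7.96, 7.94 and 8.24 at 0 h and 7.32, 7.28 and 7.49 at 24 h. Esr1, the estrogen receptor gene, read 10.91, 10.82 and 11.21 at 0 h and 8.95, 8.48 and 9.29 at 24 h, and its other probe sets fell by 0.46 and 0.27. OHT activates the fusion as a protein, so neither gene's RNA was used to check the labels. Whether these probe sets read the fusion was not tested.

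Of the measured genes, 52.1% differed between the groups, most by small amounts. limma called 4736 genes higher at 24 h (26.0% of all genes) and 4747 lower (26.1%), at a Benjamini-Hochberg adjusted p under 0.05. Quantile normalization gave 4413 and 4288, but removal of array medians gave 3559 and 5225. Leaving out probe sets under the median level gave 3656 and 4773. On the deposited values the calls were balanced in number, but their sizes were not. Between log2 0.5 and 2, the lower genes outnumbered the higher: 1865 against 1060 changed by 0.5 to 1, and 833 against 502 by 1 to 2. Above that the order turned, and 77 genes rose by at least 4 (16-fold) while 7 fell by as much. The median called rise was 0.41 and the median called fall -0.60.

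Small calls need care. Changes under 0.25 made up 555 of the higher and 356 of the lower calls. The 18 hybridization spike-in control probe sets, which carry no cell RNA, themselves shifted by 0.07 to 0.33. The 24 poly-A spike-in probe sets shifted by -0.43 to 0.03. The part of such shifts in the small calls was not tested. At the level of probe sets there were 10024 rises (22.3%) and 10601 falls (23.5%), 45.8% in either direction, so that 48.6% of the calls were higher. Of them, 1517 rose by at least 1 (3.37%) and 2021 fell by as much (4.49%). Removing each array's median gave 7265 higher and 11962 lower, 37.8% higher. It moved the median change of all probe sets from 0.05 to -0.02.

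**Figure D1:**
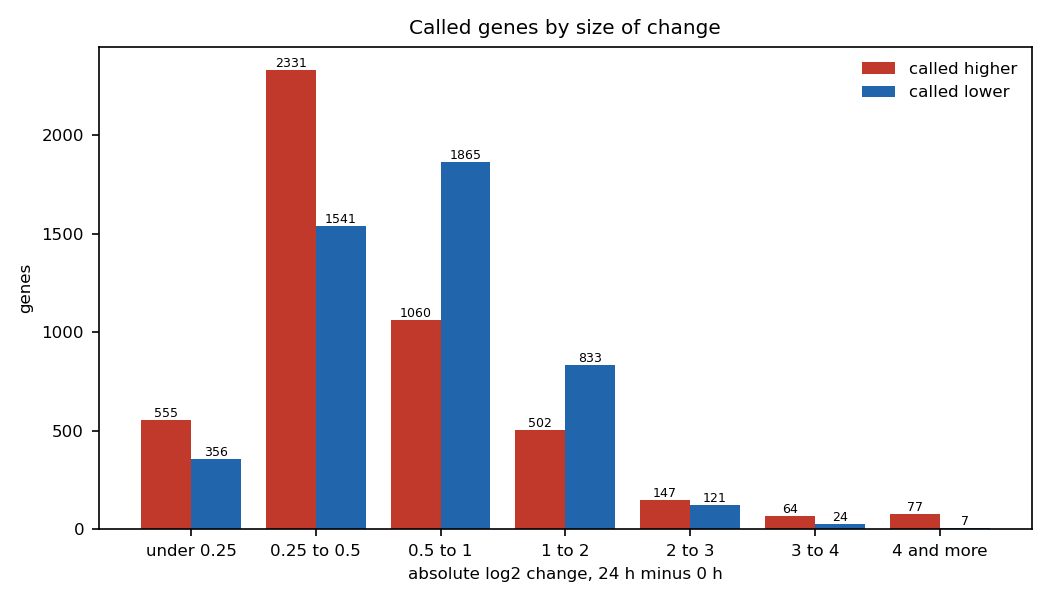
Number of called genes (vertical axis) by the absolute log2 change between 24 h and 0 h (horizontal axis), with genes called higher in red and lower in blue. Lower genes are in excess from 0.5 to 2, with 1865 against 1060 and 833 against 502, and higher genes at 4 and more, with 77 against 7.

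Genes that rose or fell strongly differed in where they started and ended. These sets were chosen by their change, so part of the difference follows from the choice. A gene at the bottom of the scale cannot fall by 1. The 790 genes that rose by at least 1 (4.34% of all genes) had a median level of 7.53 at 0 h and 9.73 at 24 h. At 0 h 28.2% of them lay below the median level of all probe sets, 5.84, and at 24 h 3.04%, while among all genes 39.7% and 37.4% did. The 985 genes that fell by at least 1 (5.41%) had medians of 9.49 and 8.07, and 1.73% lay below 5.84 at 0 h and 11.6% at 24 h. Both sets were thus less often below it than genes in general, at either time. A complete crossing was counted where all 3 arrays of a group lay under their array's median and all 3 of the other group above its 90th percentile. It was made upward by 25 genes and downward by 1, Rgcc.

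**Figure D2:**
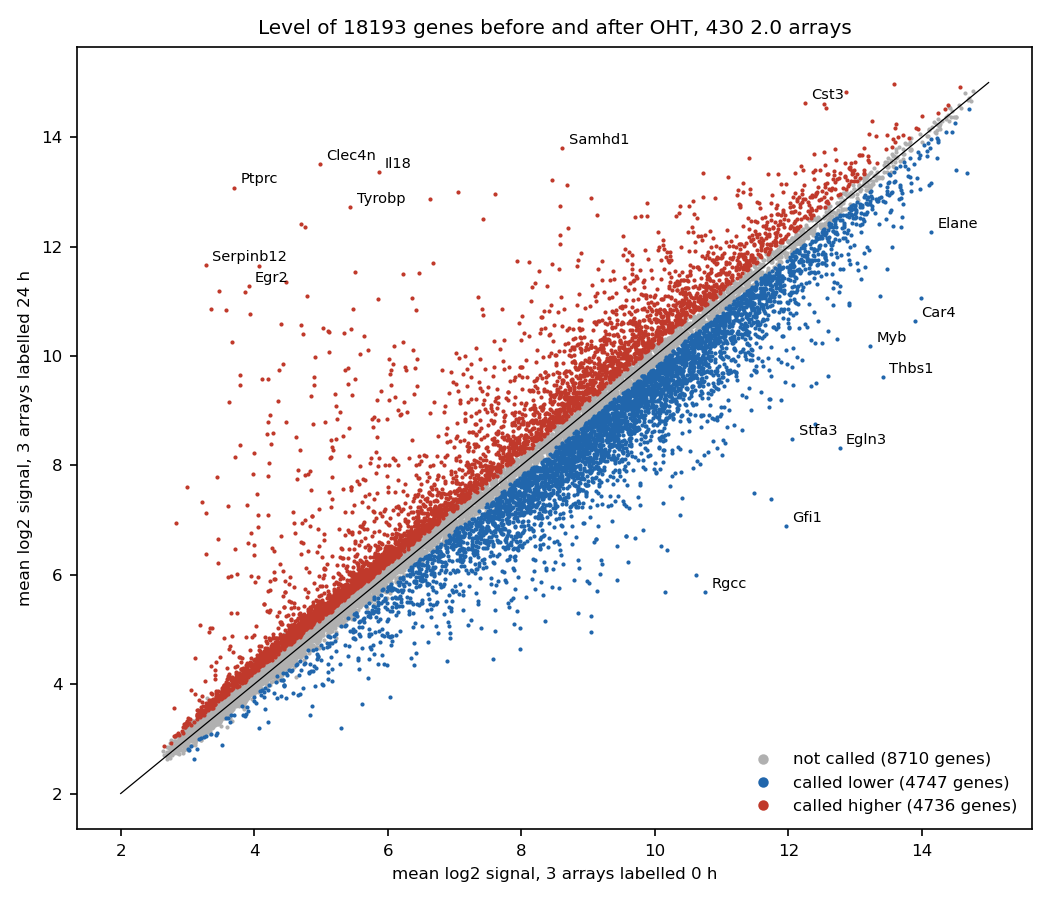
Mean log2 signal of each of 18193 genes over the 3 arrays labelled 0 h (horizontal axis) and the 3 labelled 24 h (vertical axis); red genes were called higher, blue lower and grey neither, and the line marks equal levels. Genes that rose by at least 1 have median levels of 7.53 and 9.73 and spread upward from the lowest 0 h levels, such as Ptprc, while those that fell by at least 1 have medians of 9.49 and 8.07.

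The 25 genes that crossed upward included surface receptors, an adaptor, a secreted protease, a protease inhibitor and a transcription factor. Ptprc encodes the leukocyte surface phosphatase CD45. Its brightest probe set read 3.70, 3.90 and 3.49 at 0 h and 13.04, 13.18 and 13.02 at 24 h. Every array at 0 h was near the bottom of the scale and every array at 24 h near its top. Clec4n, the C-type lectin receptor dectin-2, read 5.17, 4.81 and 4.98 at 0 h and 13.52, 13.51 and 13.53 at 24 h. Its other probe set rose further, by 9.59. Serpinb12, a serine protease inhibitor, read 3.21, 3.33 and 3.27 and then 11.68, 11.68 and 11.61 (change 8.39 ± 0.0654 SE, limma adjusted p = 1.11e-10). Sucnr1, the receptor for succinate, read 3.81, 3.16 and 3.44 and then 11.03, 11.28 and 11.23, a 210-fold difference (change 7.71 ± 0.151 SE, limma adjusted p = 3.28e-09). In none of these genes did the groups overlap, as a complete crossing entails, and the same was true of 61.0% of all genes.

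Others in this set are known from other tissues. Aqp4, a water channel known from brain glia, read 3.53, 3.75 and 3.48 at 0 h and 10.94, 10.82 and 10.77 at 24 h. Its other probe sets rose by 6.20 and 3.15, so that all 3 moved the same way. Plet1, a surface protein known from placenta and epithelia, went from 4.34, 4.51 and 4.58 to 11.35, 11.35 and 11.38. Its other probe sets rose by 5.23 and 0.42. The remaining crossing genes included the lectin receptors Clec4a2 and Clec4a3, the chemokine receptor Ccr2, the macrophage elastase Mmp12, the transcription factor Egr2 and the adhesion receptor Adgre1.

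In some genes with several probe sets each of them showed a large rise, and in others, such as Ptprc, they did not. Among genes whose probe sets were all called the same way, the 15 whose smallest rise was largest were Clec4n, Mndal, Egr2, Gprc5b, Rgs18, Adgre4, Mmp9, Clec4a2, Ptpro, Tgfbi, Nfam1, Tlr3, Jun, Ctsc and Samhd1. Tgfbi, a secreted matrix protein induced by TGF-beta, had 4 probe sets with rises of 5.67, 4.39, 5.66 and 6.97. The brightest read 4.50, 4.72 and 4.96 at 0 h and 10.32, 10.53 and 10.35 at 24 h. Samhd1, an enzyme that breaks down deoxynucleotides, had 5 probe sets with rises between 3.34 and 5.18. It was not low to begin with: its brightest probe set read 8.65, 8.62 and 8.58 at 0 h and 13.84, 13.79 and 13.78 at 24 h. Rgs18, a regulator of G-protein signalling in blood cells, rose by 6.59 and 5.28. Mndal, an interferon-inducible nuclear protein, rose by 6.84 and 7.20. Ctsc, the lysosomal protease that activates granule proteases, rose by 3.41 to 6.23 over 3 probe sets.

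Among genes with a single probe set, the 10 largest rises were those of Sucnr1, Mmp12, Clec4a3, Il18, Tyrobp, Adgre1, Pilrb1, Cd52, Rnase6 and Sirpb1a. Il18, a cytokine released after cleavage by caspase-1, read 5.91, 6.10 and 5.57 at 0 h and 13.36, 13.39 and 13.34 at 24 h. Cd52, a short lipid-anchored glycoprotein of leukocytes, read 7.30, 6.89 and 6.95 and then 12.99 ± 0.0894 (SD, n = 3). Rnase6, an antimicrobial ribonuclease, rose by 5.54 ± 0.0912 SE (limma adjusted p = 1.32e-09). The 10 were chosen among genes whose groups did not overlap, which was true of 61.0% of all genes. With 1 probe set nothing on the array repeats the reading.

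**Figure D3:**
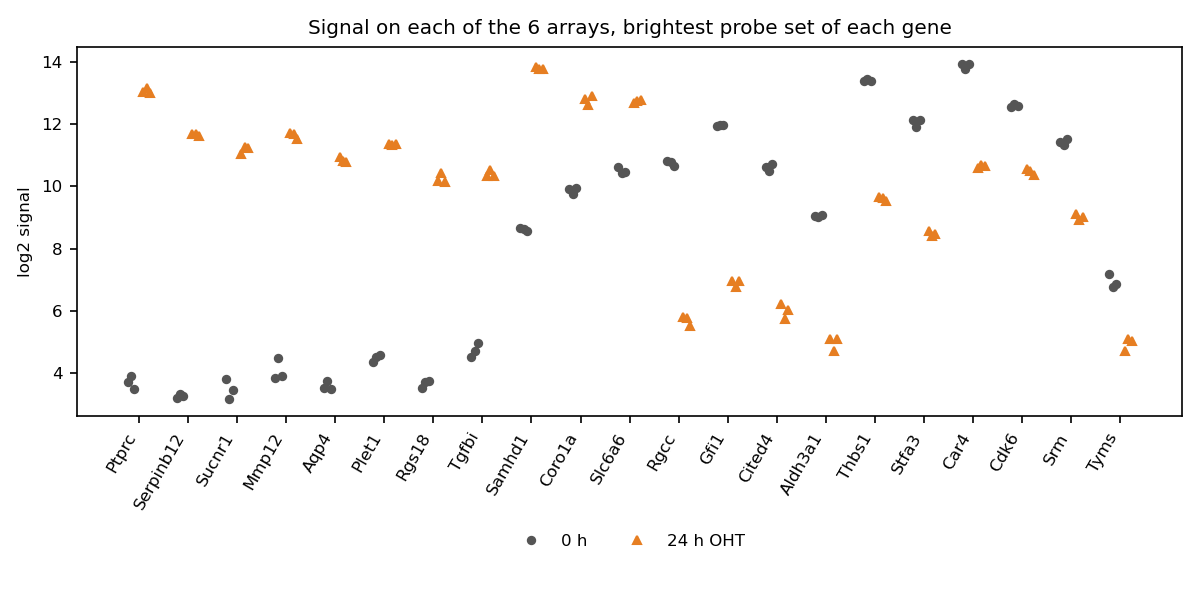
Log2 signal (vertical axis) on each of the 6 arrays for the brightest probe set of 21 genes, with circles for the 3 arrays labelled 0 h and triangles for the 3 labelled 24 h. The groups do not overlap in any of the genes shown, nor in 61.0% of all genes, and many of those shown were chosen by rules that require it. Ptprc stands at 3.49 to 3.90 and 13.02 to 13.18, Gfi1 at 11.96 and 6.76 to 6.97.

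Promoter letters were searched for the ETS-type sequence that PU.1 recognises, GAGGAAGT, and for the AP-1 site TGACTCA, on both strands of the 250 bases before each annotated start (RefSeq, GRCm38.p6). The letters do not overlap each other. Of 32851 windows in the table, 2.44% held GAGGAAGT and 4.46% TGACTCA. Among the 77 genes that rose by at least 4, 64 had a window, 89 in all, and 6.74% of these windows held each of the letter strings. Among genes that rose by at least 2 the shares were 5.31% and 5.61% of 339 windows. Among genes that fell by at least 2, they were 3.03% and 4.85% of 165 windows, and among genes not called 2.37% and 4.38%. The windows of a gene share sequence and the genes were chosen by their change, so these shares are a description with no test. The 6 genes with GAGGAAGT were Mmp12, Ctsc, Pirb, Rapgef5, Ampd3 and Cd300ld. The windows of 4 of them are printed because these genes are among the receptors and proteases described here. Capitals mark the match, read as its reverse complement in Ctsc and Mmp12.
Mmp12 (chr9:7344147-7344396, plus strand): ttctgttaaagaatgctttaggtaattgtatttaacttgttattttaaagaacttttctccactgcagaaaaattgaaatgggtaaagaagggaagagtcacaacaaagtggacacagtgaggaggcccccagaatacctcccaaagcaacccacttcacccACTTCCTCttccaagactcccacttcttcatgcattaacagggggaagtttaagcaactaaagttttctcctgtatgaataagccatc
Ctsc (chr7:88277835-88278084, plus strand): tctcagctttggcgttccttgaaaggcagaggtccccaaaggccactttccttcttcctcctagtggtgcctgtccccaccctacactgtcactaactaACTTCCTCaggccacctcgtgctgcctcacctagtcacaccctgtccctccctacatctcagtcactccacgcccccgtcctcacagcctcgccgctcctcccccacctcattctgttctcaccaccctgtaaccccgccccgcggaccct
Pirb (chr7:3720383-3720632, minus strand): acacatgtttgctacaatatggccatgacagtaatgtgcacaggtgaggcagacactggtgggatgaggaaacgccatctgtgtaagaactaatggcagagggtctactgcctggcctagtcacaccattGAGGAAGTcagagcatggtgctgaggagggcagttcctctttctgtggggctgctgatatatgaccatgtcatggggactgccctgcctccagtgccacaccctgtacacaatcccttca
Cd300ld (chr11:114989887-114990136, minus strand): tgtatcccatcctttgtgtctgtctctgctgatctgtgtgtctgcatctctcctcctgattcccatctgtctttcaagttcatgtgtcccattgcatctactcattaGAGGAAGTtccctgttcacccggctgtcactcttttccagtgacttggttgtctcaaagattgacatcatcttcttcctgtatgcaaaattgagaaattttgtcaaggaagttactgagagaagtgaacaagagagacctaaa
The match starts 88 bases before the annotated start in Mmp12, 151 in Ctsc, 120 in Pirb and 143 in Cd300ld. Mmp12 rose by 7.57, with 3.83, 4.48 and 3.91 at 0 h and 11.71, 11.68 and 11.54 at 24 h. Pirb, an inhibitory receptor for MHC class I, rose by 5.32 and Cd300ld, an activating receptor, by 4.04.

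Receptors and the adaptors that carry their signals held the pathway lists with the largest share of rises. List counts have no set test and are read beside the shares among all genes, 26.0% higher and 26.1% lower. These shares are not matched for level. Genes not called had a median level of 5.26 at 0 h, against 6.80 for all genes. The part of level in the list counts was not tested. Paired receptors, families in which activating and inhibitory members share ligands, had 21 of 25 measured members called higher and 1 lower, with a median change of 2.04. Over all genes the median was 0.06. Pilrb1, an activating member, read 5.35, 5.44 and 5.76 at 0 h and 11.52, 11.60 and 11.47 at 24 h. Sirpb1a rose by 5.49 and Treml4 by 5.46, while the inhibitory Pilra rose by 5.37, so rises were found on both sides of the pairing. The single fall was Treml2, at -1.26, with 9.90, 9.90 and 9.85 and then 8.51, 8.72 and 8.63.

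Immunoreceptor signalling genes had 21 of 28 members higher and 3 lower, with a median of 0.73. Tyrobp, the adaptor DAP12 that pairs with many of these activating receptors, read 5.47, 5.34 and 5.51 at 0 h and 12.77, 12.66 and 12.73 at 24 h. Fcer1g, the adaptor chain of Fc receptors, rose by 5.18, and Blnk, a linker of B cells and macrophages, by 5.07. The kinases Btk and Tec rose by 2.37 and 2.40. The 3 falls were small by comparison: Dok1, an inhibitory adaptor, at -0.80, the exchange factor Vav1 at -0.51 and the kinase Prkcb at -0.19. Tyrosine phosphatases were split, with 6 of 15 higher and 4 lower. Besides Ptprc, the receptor phosphatase Ptpro rose by 5.86 and Ptpn6, the phosphatase SHP-1 that inhibitory receptors recruit, by 1.68. Ptprs and Ptpn1 fell by 1.20 and 0.98.

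Receptors for chemoattractants moved both ways, with 7 of 18 higher and 4 lower. Ccr2, a receptor of monocytes, rose by 7.60, Fpr2, a receptor for formylated peptides, by 5.05 and the fractalkine receptor Cx3cr1 by 4.37. Cxcr4, which holds progenitors in the bone marrow, read 12.33, 12.30 and 12.41 at 0 h and 9.52, 9.44 and 9.39 at 24 h. The leukotriene B4 receptor Ltb4r1 fell by 1.45 and the complement receptor C5ar1 by 1.22. Growth factor and cytokine receptors had 17 of 28 members higher and 5 lower, with a median of 0.39. The decoy receptor Il1r2 rose by 5.26, Il1r1 by 2.74 and Csf2rb2, the mouse IL-3 receptor beta chain, by 2.82. Kit fell by 2.37 and Tnfrsf1b, a TNF receptor, by 2.10. Integrins and adhesion receptors had 11 of 25 higher and 6 lower; the integrin chains Itgax and Itgam rose by 4.07 and 2.70, and Prom1 and Pecam1 fell by 2.50 and 1.99. Tetraspanins and Ms4a proteins had 7 of 23 higher and 4 lower, with a median of 0.13. Ms4a6d, a membrane protein of macrophages, read 3.29, 3.41 and 3.62 and then 7.75, 7.86 and 7.73.

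Early response transcription factors were mostly higher, with 14 of 27 up and 3 down. Egr2 read 3.93, 3.98 and 3.85 at 0 h and 11.27, 11.34 and 11.22 at 24 h. Fos read 8.68, 8.60 and 8.45 and then 12.73, 12.66 and 12.84, and Jun rose by 3.47 and 4.02 in its 2 probe sets. The falls were those of Fosl1 (-2.13), Myc (-1.84) and Ier2 (-0.51). Myc, a driver of growth, read 11.96 ± 0.0336 at 0 h and 10.12 ± 0.0355 at 24 h (SD, n = 3). Feedback regulators of the RGS, DUSP and Sprouty families had 11 of 22 higher and 4 lower. Dusp1, a phosphatase of MAP kinases, rose by 3.74, and Spred2, an inhibitor of the RAS pathway, fell by 1.04.

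Actin and motility genes rose in 21 of 39 cases and fell in 5, with a median of 0.31. Coro1a, an actin-binding protein of leukocytes, read 9.93, 9.75 and 9.95 at 0 h and 12.83, 12.63 and 12.92 at 24 h. Cotl1, a coactosin-like protein, rose in all 6 of its probe sets, by 1.64 to 3.16; 5 of these carry the suffix _x_at, which marks probes that may match other transcripts. Anxa1 rose by 1.98 and Capg by 1.86, and Marcksl1 fell by 1.74. The core genes Actb, Cfl1, Pfn1 and Tmsb4x were not called.

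Secreted proteases and their inhibitors were evenly divided, 10 of 28 higher and 10 lower. Mmp9, a gelatinase, read 5.50, 5.93 and 5.53 and then 10.44, 10.32 and 10.35. Cst3 rose by 2.37, while Cst7, another cystatin, fell by 2.14. Lipid efflux and lipoprotein genes were as evenly divided, 11 of 25 higher and 10 lower. Lpcat2, which makes platelet-activating factor, rose by 2.70; the nuclear receptor Pparg, the peroxisomal transporter Abcd2 and Apoc2 fell by 2.26, 2.25 and 2.08. Of 18 eicosanoid enzymes 8 rose and 5 fell, and Lta4h, the leukotriene A4 hydrolase, was read differently by its probe sets, at -1.47, -1.76 and 0.34. Purinergic genes had 8 of 17 higher and 5 lower. The UDP receptor P2ry6 rose by 3.85, and Nt5e, the surface enzyme that makes adenosine from AMP, read 11.45, 11.54 and 11.44 at 0 h and 7.41, 7.54 and 7.51 at 24 h. The 8 purinergic rises became 5 with array medians removed, with probe sets under the median level left out, or without replicate 1 of either group. Of 20 iron and heme genes 8 rose, among them the lysosomal metal transporter Slc11a1 (3.64), and 5 fell, among them the heme synthesis enzyme Cpox (-1.97).

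The largest fall among single-probe-set genes was that of Gfi1, the granulocytic repressor introduced above. It read 11.96 on each of the 3 arrays at 0 h and 6.95, 6.76 and 6.97 at 24 h. Other large falls were those of Aldh3a1, Fmo1, Stfa3, Gzme, Ikbke, Nckap5, Prg4 and Camp. Aldh3a1, an aldehyde dehydrogenase, read 9.06, 9.01 and 9.07 and then 5.09, 4.71 and 5.08. Stfa3, a stefin that inhibits cysteine proteases, read 12.14, 11.91 and 12.13 and then 8.55, 8.42 and 8.48. Aldh3a1 ended below the median level of 5.84, while Stfa3 ended well above it.

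Among genes with several probe sets all called lower, the 15 largest by their smallest fall were Rgcc, Egln3, Thbs1, Nrg4, Car4, Snai3, Sgms2, Myb, Sh2d5, Rhou, Dgat2, Hsd17b14, Mybl2, Kit and Ghr. Rgcc, a regulator of the cell cycle, read 10.83, 10.77 and 10.67 at 0 h and 5.79, 5.75 and 5.53 at 24 h (change -5.07 ± 0.087 SE, limma adjusted p = 1.66e-09), and its other probe set fell by 4.90. Egln3, a prolyl hydroxylase of hypoxia-inducible factor, read 12.81, 12.75 and 12.74 and then 8.37, 8.25 and 8.35. Thbs1, the secreted glycoprotein thrombospondin-1, read 13.40, 13.46 and 13.39 and then 9.65, 9.63 and 9.55. Myb, the transcription factor of progenitor self-renewal, fell in its 3 probe sets by 2.93 to 3.15, and the related Mybl2 by 2.50 and 2.44. Car4, a membrane carbonic anhydrase, read 13.93, 13.79 and 13.95 and then 10.59, 10.68 and 10.66. Unlike Rgcc, it kept a high level at 24 h.

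**Figure D4:**
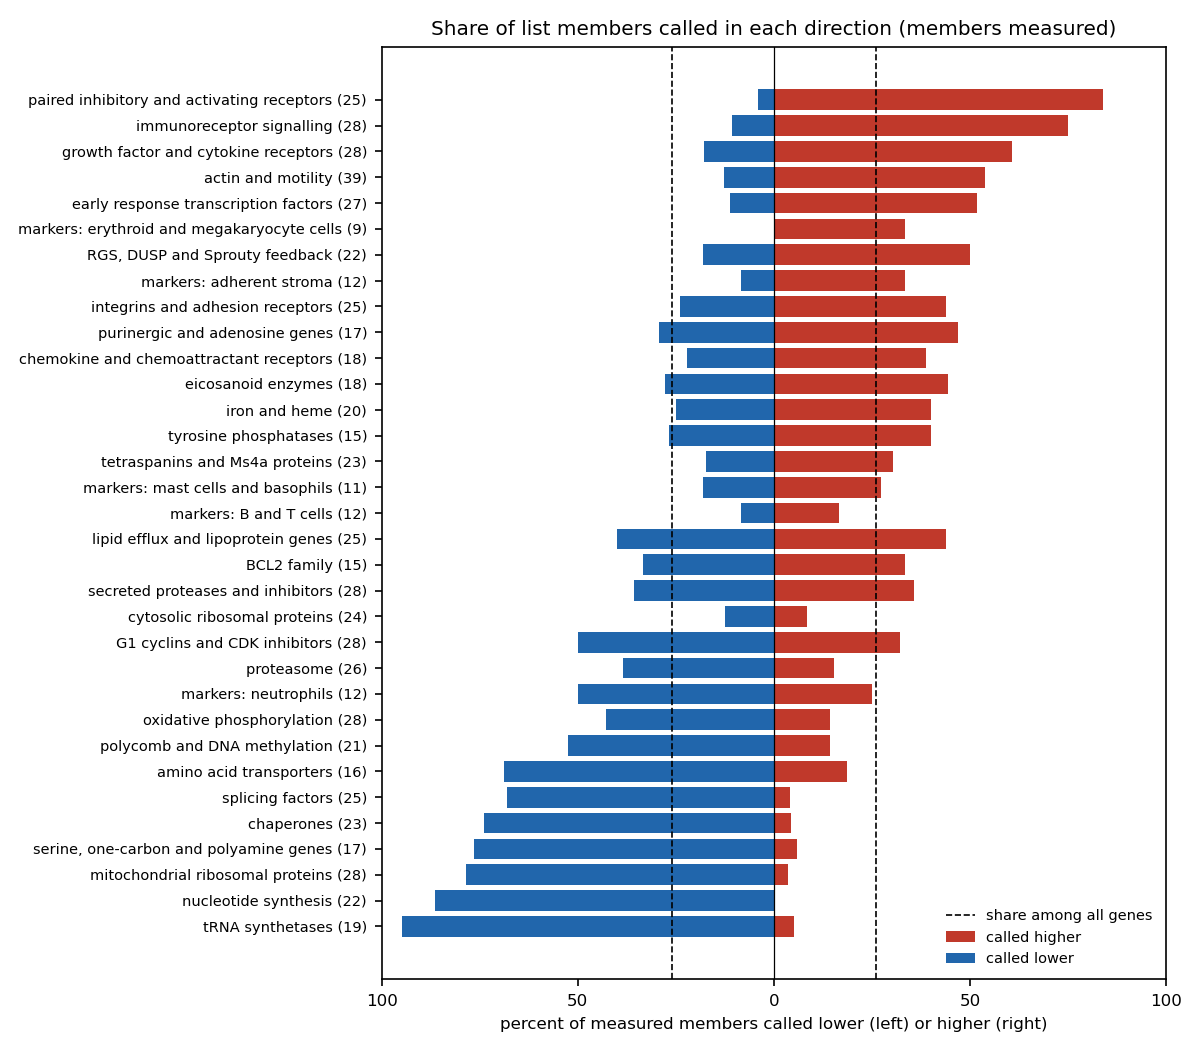
Percent of the measured members of each gene list called higher (red, to the right) and lower (blue, to the left), with the number of members in parentheses and the shares among all genes, 26.0% higher and 26.1% lower, as dashed lines. Paired receptors had 21 of 25 members higher, and tRNA synthetases 18 of 19 lower. The dashed lines are not matched to the level of each list.

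Genes that feed growth fell as lists. Of 22 nucleotide synthesis genes 19 were called lower and none higher, with a median of -0.90. Ctps, the CTP synthase, read 11.54, 11.49 and 11.42 at 0 h and 9.71, 9.74 and 9.77 at 24 h. Cad, which starts pyrimidine synthesis, fell by 1.68 and its other probe sets fell too, the least by 1.21. Tyms, the thymidylate synthase, read 7.17, 6.78 and 6.87 and then 4.70, 5.08 and 5.03, but its other 3 probe sets showed -0.28, 0.18 (not called) and -0.54. In serine, one-carbon and polyamine metabolism 13 of 17 were lower and 1, Sat1, higher (1.20). Srm, the spermidine synthase, read 11.42, 11.35 and 11.54 and then 9.10, 8.91 and 9.02. The serine hydroxymethyltransferases Shmt1 and Shmt2 fell by 1.98 and 1.53.

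Amino acid transporters had 11 of 16 members lower and 3 higher, with a median of -0.55. Slc7a5, the large neutral amino acid transporter, read 10.35, 10.26 and 10.43 at 0 h and 8.40, 8.29 and 8.29 at 24 h. Slc1a5, a glutamine transporter, fell by 1.85 and the cystine transporter Slc7a11 by 1.57. The rises were those of the taurine transporter Slc6a6 (2.22), Slc43a2 (0.93) and Slc36a1 (0.22). Of 19 cytosolic tRNA synthetases, the enzymes that load amino acids on tRNA, 18 were lower, with a median of -0.66. Farsa, of phenylalanine, read 10.58, 10.57 and 10.66 and then 9.07, 8.71 and 9.01, although another of its probe sets rose by 0.32. Vars, Yars and Wars, of valine, tyrosine and tryptophan, fell by 1.60, 1.31 and 1.14. Qars, of glutamine, was called higher by 0.28 on its brightest probe set, and the call was lost with array medians removed (limma adjusted p = 0.0811). Another of its probe sets fell by 0.42.

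Ribosomal genes were divided by compartment. Of 28 mitochondrial ribosomal proteins 22 were lower and 1 higher, with a median of -0.42; Mrpl12 fell by 1.44 and Mrps18b by 1.34. Of 24 cytosolic ribosomal proteins 3 were lower and 2 higher, with a median of -0.04. This last count was sensitive to the method: 7 were lower with array medians removed and 10 with an intensity trend and robust variances. Rpl12 stood apart, with 9.39, 9.39 and 9.43 at 0 h and 7.40, 7.34 and 7.29 at 24 h. Rpl37 moved the other way, from 11.03, 11.11 and 11.05 to 11.74, 11.82 and 11.47. Ribosomal protein genes have many near-identical pseudogenes, so what these probe sets read is uncertain.

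Chaperones had 17 of 23 members lower and 1 higher, splicing factors 17 of 25 lower and 1 higher. Stip1, a co-chaperone that links HSP70 and HSP90, fell by 1.06, and Hnrnpd, an RNA-binding protein, by 1.23. The chaperone that rose was Hspb1 (0.46) and the splicing factor Srsf5 (0.28). Oxidative phosphorylation had 12 of 28 lower and 4 higher and the proteasome 10 of 26 lower and 4 higher, with smaller medians of -0.13 and -0.11. The median levels of these lists were 12.56 and 12.44, against 6.86 among all genes. Polycomb and DNA methylation genes had 11 of 21 lower and 3 higher. Uhrf1, which guides maintenance methylation, read 11.05, 11.08 and 11.17 and then 9.24, 9.23 and 9.12, and Tet2, which oxidises methylcytosine, rose by 0.35. Among G1 cyclins, kinases and their inhibitors 14 of 28 were lower and 9 higher. Cdk6, a G1 kinase, read 12.56, 12.65 and 12.59 and then 10.55, 10.49 and 10.35, and the CDK inhibitor Cdkn1b rose by 1.35. In the BCL2 family 5 of 15 rose and 5 fell, and Bnip3 fell by 1.42. On their brightest probe sets the death-promoting Bmf and Bcl2l11 rose by 1.77 and 1.07 and the survival gene Mcl1 by 0.91. Other probe sets of Bmf showed 0.39 and 0.07 (not called), and those of Bcl2l11 0.45, 0.31, 0.13 (not called) and -0.49. All 6 probe sets of Mcl1 rose, by 0.91 to 1.74.

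Markers were read to check the labelled cell type and other cells. For comparison, 26.0% of all genes were called higher and 26.1% lower. Of 8 progenitor markers 6 fell and Mpo, the granule enzyme myeloperoxidase, rose by 0.90. Cd34 was near the bottom of the scale in both groups, 3.51 and 3.64 on average, and was not called. The summed linear signal of these markers fell from 85967–87534 to 33223–35380. The granule proteases Ctsg, Prtn3 and Elane, at 14.67, 14.51 and 14.14 on average at 0 h, give most of the 0 h sum. Macrophage markers were all called higher, 8 of 8, and their sum rose from 9196–9713 to 41262–42627. Lyz2, at 14.84 on average at 24 h, gives most of the 24 h sum. Among the macrophage markers Fcgr1, the high-affinity IgG receptor, rose by 0.29 on its brightest probe set. That probe set lost its call with array medians removed (limma adjusted p = 0.0602) or with quantile normalization (0.0649). Its other probe set rose by 1.00 (limma adjusted p = 0.00055). Neutrophil markers, a list that shares Elane with the progenitor markers, had 6 of 12 members lower and 3 higher. Their sum went from 122310–124010 to 76296–77552. Camp read 10.41, 10.31 and 10.42 and then 7.05, 7.11 and 7.09, Ngp fell by 2.59 and Elane by 1.88, while Mmp8 rose by 2.18. In bulk RNA, fewer cells of a type and less RNA per cell cannot be told apart.

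Markers of other cells were read as well. Of 9 erythroid and megakaryocyte markers, 5 lay below the median level in both groups, and so did 7 of 11 for mast cells and basophils and 7 of 12 for B and T cells, while 6593 of all 18193 genes did. Their summed linear signals went from 587–650 to 677–727, from 836–876 to 583–597 and from 478–517 to 508–554. Members called higher and lower numbered 3 and 0 (33.3% and 0%), 3 and 2 (27.3% and 18.2%), and 2 and 1 (16.7% and 8.33%). The shares among all genes were 26.0% and 26.1%. Mcpt8, a protease of basophils, was above the median level, at 8.62 on average at 0 h and 7.14 at 24 h. Of 12 markers of adherent stroma 4 were higher and 1 lower, 4 lay below the median level in both groups, and the sum went from 3675–3860 to 5157–5416. Acta2, the smooth muscle actin, which gives most of this sum, rose by 0.50, with 11.66, 11.57 and 11.64 and then 12.16, 12.08 and 12.14. Its other probe sets showed -0.29 and 0.20 (not called). Cdh5, a cadherin of endothelium, had the largest log2 rise of the list, from a low level, with 4.94, 4.72 and 4.63 and then 7.85, 7.84 and 7.81. The part of other cells in the results was not tested.

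Genes with several probe sets show how far 1 reading stands for a gene. In 936 of the 9010 such genes every probe set was called higher, in 1381 every one was called lower, and in 2241 none was called. A further 2155 had some probe sets called higher and none lower, and 1876 the reverse. The remaining 421 (4.67%) had probe sets called in both directions. At least one of the opposite changes was usually small: the median of the smaller change was 0.29, in 23 genes both changes reached 0.5, and in none did both reach 1. The brightest probe set was called higher in 177 of the 421, lower in 171 and not called in 73. Probe sets marked as able to match several transcripts or genes (suffixes _s_at and _x_at) made up 16.6% of their probe sets, against 14.1% among all genes with several.

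The 12 genes with the largest opposite changes were Bzw2, Ip6k2, Rmdn1, Rab11b, Xiap, Idh2, Cep68, Cds2, St7l, Cnpy2, Dmwd and Mrps21. Bzw2, a regulator of translation initiation, read 10.14, 10.01 and 10.00 at 0 h and 9.11, 9.14 and 9.36 at 24 h on its brightest probe set. Another read 7.89 ± 0.166 at 0 h and 8.89 ± 0.0713 at 24 h (SD, n = 3). Neither pair of groups overlapped, but the choice of these 12 genes required this, and it was true of 61.0% of all genes. Ip6k2, an inositol phosphate kinase, rose by 0.76 on its brightest probe set and fell by 1.06 on the other. Idh2, the mitochondrial isocitrate dehydrogenase, fell by 0.70 on one, and on the other it read 6.47, 6.65 and 6.52 and then 8.16, 8.56 and 8.15, a rise of 1.75. What the opposed probe sets read was not tested.

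A direct test of the difference between the changes of a gene's 2 brightest probe sets found a difference in 3019 of 9010 genes (33.5%), and one of at least 1 in 345 (3.83%). In 264 of the 345 the brighter probe set changed more. In 173 (50.1%) the dimmer one lay below the median level, against 49.4% of the pairs with no difference called, 31.4% of all that differed and 43.4% of all pairs. The changes were called the same way in 146, in opposite ways in 42, and the dimmer was not called in 130. Over all 9010 pairs these counts were 3286, 170 and 4490.

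Ptprc had the largest difference, 8.68 ± 0.118 SE (limma adjusted p = 2.89e-08). Its second probe set read 3.38, 3.70 and 3.60 at 0 h and 4.13, 4.38 and 4.26 at 24 h, near the bottom of the scale throughout. The second probe set of Serpinb12 rose by 3.01 against 8.39, a difference of 5.37. Ccr2, with 4 probe sets, rose by 1.80 to 7.60. Dock4, an activator of RAC, differed by 4.70. Among falls, Cited4, a transcriptional coregulator, read 10.64, 10.51 and 10.72 at 0 h and 6.22, 5.75 and 6.02 at 24 h, while its other probe set changed by 0.07 (limma adjusted p = 0.598), a difference of -4.69. Sh3pxd2a, a scaffold of invadopodia, and Hivep3, a zinc-finger protein, differed by -3.64 and -3.02. Pdgfrb, a stroma marker, is a further case: it fell by 0.46 on its brightest probe set and by 4.14 on another, which read 7.19, 6.98 and 6.84 and then 2.88, 2.81 and 2.90. The brightest one lost its call without replicate 1 at 24 h (limma adjusted p = 0.0653).

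**Figure D5:**
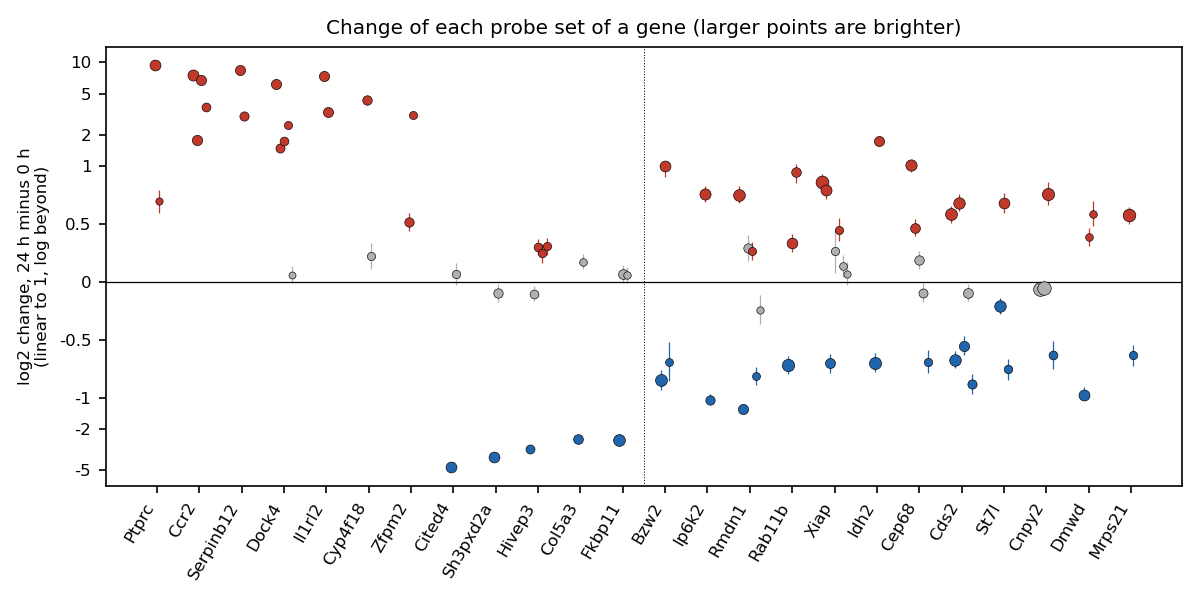
Log2 change between 24 h and 0 h (vertical axis, linear to 1 and logarithmic beyond) of each probe set of 24 genes, with larger points for brighter probe sets, bars for the SE, and colours for called higher (red), called lower (blue) and not called (grey). Left of the dotted line are the 12 largest differences between the 2 brightest probe sets, where Ptprc changed by 9.38 and 0.70, and right of it the 12 largest opposite calls, such as Bzw2 at -0.85 and 1.00.

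The kind of probe set went with the chance of a call. Of the probe sets with 1 symbol, 59.1% with suffix _a_at and 59.2% with _s_at were called, against 47.7% with plain _at and 50.4% with _x_at. The median levels of these classes differed too, 8.22 and 8.28 against 5.998 and 7.33. Whether level accounts for the order was not tested.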

How the data were processed

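RNA of PUER cells was measured on 6 Mouse Genome 430 2.0 arrays, 3 labelled 0 h and 3 labelled 24 h with OHT. Per the submitters' processing notes, the authors used Affymetrix Expression Console; its version, the summarization and the normalization are not given in the sources used here. The deposited values were taken as log2 signals from their range, 2.43 to 15.02, and used without further normalization. The 64 AFFX control probe sets were left out. Symbols came from the platform annotation; 34741 of 34945 probe sets with 1 symbol matched RefSeq GRCm38.p6. Probe sets with several symbols or none were tested but not named.

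Groups were compared with limma 3.58.1 in R 4.3.3 (lmFit, eBayes, two-sided, Benjamini-Hochberg over 45037 probe sets, threshold 0.05), after a test on simulated data. For a single gene, an exact permutation test of 3 arrays against 3 cannot go below p = 0.1. The 2 brightest probe sets of a gene were compared by limma on their difference per array, adjusted over 9010 genes. The exon arrays, 6 in number, served to check label direction.

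The members and gene lists were chosen with earlier results of these data known. Genes named were the 15 highest and 15 lowest by smallest change among genes whose several probe sets were all called the same way, and the 10 highest and 10 lowest with 1 probe set. These genes, and the opposite calls below, were taken only where the arrays of the groups did not overlap. Further named genes were the 12 largest opposite calls, the 6 largest pair differences each way, up to 4 members per list with the largest changes, few-member exceptions of a list, and a fixed set with Spi1 and markers. Genes outside this rule, such as Aqp4, Plet1, Pirb and other members of lists, were named after their values were seen. Some genes that the rule names are not reported here. Nothing in the labels pairs equal replicate numbers, and deviations of same-numbered arrays correlated at -0.0548, 0.0396 and 0.132, so the numbers were not used as pairs. The alternatives tried were removal of array medians, quantile normalization, a filter on level, an intensity trend with robust variances, a replicate block, a log2 change of at least 1, other choices of probe set, and each array left out.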

Additional observations from a re-analysis of the deposited data

How the results depend on the processing

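Direction and calls held in most alternatives. Of 2463 alternative values of the 225 genes examined, 2386 kept direction and side of the threshold, 73 values in 14 genes lost the call and Gata1 gained it. Gata2, not called, ranged from -0.084 to 0.064 with an array left out and changed sign at 0.024 without 0 h replicate 2, 0.015 without 0 h replicate 3 and 0.064 without 24 h replicate 2. Of 78 alternative counts, 71 stayed within 1.5 times of the reported ones. With each array left out, genes called higher were 3999–4446 and lower 4365–4529, probe sets higher 8361–9250 and lower 9587–10128, differing pairs 2398–2650 and genes called in both directions 276–337, against 421 with all arrays; the lowest, 276, was without 24 h replicate 1. An added log2 change of at least 1 left 1517 probe sets higher and 2021 lower, 790 genes higher and 985 lower, 345 differing pairs and 0 genes called in both directions, by construction fewer. With the replicate block 9820 probe sets were higher and 10425 lower, 4634 genes higher and 4640 lower, 391 called in both directions and 2761 pairs differed; the block ended the calls of Prkcb (adjusted p = 0.0723), Rps3 (0.0554) and St7l (0.0525) among named genes. Among list counts, 801 of 924 stayed within 1.5 times. Quantile normalization moved the median of all probe sets from 0.05 to 0.00 and gave 8851 higher and 10165 lower; leaving out probe sets under the median level gave 6845 and 9671, and removing array medians 7265 and 11962. No detection calls were used, so folds from a dim group may be understated.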

Other observations

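Probe sets without a single gene symbol also changed. Of the 9160 with no symbol, 1700 were called higher and 1090 lower, and of the 932 with several symbols 214 and 221. Those with no symbol had a median level of 4.63, those with several 7.36.

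Among the left-out control probe sets, the 3 that read mouse 18S ribosomal RNA were lower at 24 h, by -0.63 at the 3' end, -0.89 in the middle and -1.38 at the 5' end. No test was run on the controls.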
